A study of Mus musculus with 2 samples.

Results

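The mouse genome carries its Hox genes in 4 clusters, HoxA to HoxD, and the genes described here are those of the 4 clusters together with the antisense and other long noncoding RNAs named after them. Members were chosen by gene symbol in the GENCODE M21 annotation, with no measured value in the rule: a symbol made of Hox, a cluster letter and a paralog number, with or without the antisense suffix os, the Hoxaas RNAs, and Hotairm1, Hotair, Hottip and Haglr. This gave 49 of 55536 annotated genes, 39 of them protein coding and 10 noncoding. PolyA plus RNA was sequenced from the hindbrain of B6NCrl mouse embryos of mixed sex at embryonic day 12.5, in 1 group of 2 biological replicates: pool 1 came from 120 embryos and pool 2 from 88 embryos. Each library was primed with oligo-dT from 10 ng of total RNA with added ERCC spike-in RNAs and fragmented by Nextera tagmentation. With 1 group there is no contrast between conditions and no test, and every comparison below describes these 2 pools.

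Hox genes encode homeodomain transcription factors that give cells their position along the body axis. Within a cluster the genes lie in the order of their paralog number, and genes at the low-numbered end are switched on earlier and reach further forward, into the hindbrain, whereas genes at the high-numbered end are kept to the trunk and tail. Retinoic acid activates the low-numbered genes, Polycomb proteins keep the others silent, and several noncoding RNAs are transcribed between the coding genes, mostly from the opposite strand.

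Levels are given in TPM, an abundance corrected for transcript length and library size, and a gene is called detected at 1 TPM or more in both pools. Gene counts summed to 31469575 in pool 1 and 29261472 in pool 2. The tissue label was checked against marker lists: 9 of 10 hindbrain markers were detected, among them Lhx1, Lhx5 and Gbx2, against 2 of 6 forebrain markers (Lhx2 and Emx2). Of 6 markers of the spinal cord and caudal neural tube 1 was detected, Nkx1-2 at 4.97 and 2.25 TPM in pools 1 and 2, and Cdx2 and Cdx4 had no count. The markers of this list belong to the caudal end of the embryo. Whether spinal cord next to the hindbrain was included was therefore not tested. Other tissues were present: all 8 mesenchyme and meninges markers, all 8 markers of cranial ganglia and neural crest and 7 of 8 skeletal muscle markers were detected. Over all protein-coding genes 61.8% were detected. Hox genes are also expressed in mesenchyme, neural crest and somites. In bulk RNA a lower level from fewer cells of a type cannot be told apart from less RNA per cell.

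Sequences of 5 members are shown first, because the results below turn on their levels. Promoters are the 250 bases upstream of the RefSeq start on GRCm38.p6, which for these 4 genes is also the start of the most abundant GENCODE transcript, and RefSeq promoters could be matched to 26 of 49 members. Hoxa5 (chr6:52204588-52204837, minus strand) and Hoxc4 (chr15:103034145-103034394, plus strand) had higher levels in pool 2, Hoxb8 (chr11:96281655-96281904, plus strand) was higher in pool 1, and Hoxb4 (chr11:96318017-96318266, plus strand) was nearly equal. Capitals mark matches on either strand to 4 short motifs. Of these, TATAAA is a core promoter box and CCAAT a site bound by the factor NF-Y. The motif TGATNNAT is a bipartite Hox and Pbx motif, and AGGTCA is a nuclear receptor half-site. In Hoxa5 and Hoxc4 capitals also mark the longest stretch that these 2 promoters share.
Hoxa5: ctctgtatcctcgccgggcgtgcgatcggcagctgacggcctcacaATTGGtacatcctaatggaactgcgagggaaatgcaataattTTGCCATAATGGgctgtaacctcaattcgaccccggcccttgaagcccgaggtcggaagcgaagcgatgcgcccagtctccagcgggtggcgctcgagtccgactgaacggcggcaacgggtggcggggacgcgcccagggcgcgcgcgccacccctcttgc
Hoxc4: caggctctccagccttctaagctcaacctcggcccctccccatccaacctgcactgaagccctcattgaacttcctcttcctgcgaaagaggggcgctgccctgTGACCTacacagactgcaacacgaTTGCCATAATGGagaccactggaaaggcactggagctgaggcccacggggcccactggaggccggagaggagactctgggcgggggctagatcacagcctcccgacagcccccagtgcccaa
Hoxb8: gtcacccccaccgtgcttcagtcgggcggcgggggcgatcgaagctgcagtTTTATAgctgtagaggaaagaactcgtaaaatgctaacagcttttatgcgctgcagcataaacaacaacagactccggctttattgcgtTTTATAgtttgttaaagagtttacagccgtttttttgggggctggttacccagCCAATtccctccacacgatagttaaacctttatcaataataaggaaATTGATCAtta
Hoxb4: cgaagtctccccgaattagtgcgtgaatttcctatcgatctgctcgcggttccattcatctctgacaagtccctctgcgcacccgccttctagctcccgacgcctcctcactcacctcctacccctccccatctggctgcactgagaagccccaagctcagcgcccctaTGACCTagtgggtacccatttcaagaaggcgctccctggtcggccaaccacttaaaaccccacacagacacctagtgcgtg

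Of the 4 promoters, that of Hoxb8 held the most motif matches: TATAAA at 199 and at 110 bp upstream, CCAAT at 57 bp and TGATNNAT from 11 to 4 bp upstream of the start. Hoxa5 held a CCAAT match 204 bp upstream, and Hoxc4 and Hoxb4 each held an AGGTCA match, at 146 and 81 bp upstream. Among 32851 promoter windows of the same length, 12.4% held TATAAA, 33.8% CCAAT, 7.68% TGATNNAT and 14.0% AGGTCA, on either strand. In the 4 windows shown no match overlapped a match to another motif. The stretch TTGCCATAATGG, chosen after the sequences were compared, lies 162 bp upstream of Hoxa5 and 122 bp upstream of Hoxc4 and was found in 2 of the 32851 windows, those of these 2 genes. Hoxc4 and Hoxb4 share a stretch of the same length, CCCCTCCCCATC, which was found in 25 windows (0.0761%). CpG dinucleotides numbered 28 in the Hoxa5 window, 14 in that of Hoxb4, 12 in that of Hoxb8 and 8 in that of Hoxc4, against a median of 6 over all windows. These matches describe the letters of the windows, and no binding was measured.

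One noncoding RNA is shown too, because a short transcript holds most of the TPM reported for it. Hotairm1-203 is the Hotairm1 transcript of largest TPM share, 253 bases in 2 exons (chr6:52158524-52162020, plus strand, mm10, from the GENCODE M21 annotation), with exon 1 in lower case and exon 2 in capitals. Hotairm1 is a long noncoding RNA from the low-numbered end of HoxA, best known from myeloid cells.
Hotairm1-203: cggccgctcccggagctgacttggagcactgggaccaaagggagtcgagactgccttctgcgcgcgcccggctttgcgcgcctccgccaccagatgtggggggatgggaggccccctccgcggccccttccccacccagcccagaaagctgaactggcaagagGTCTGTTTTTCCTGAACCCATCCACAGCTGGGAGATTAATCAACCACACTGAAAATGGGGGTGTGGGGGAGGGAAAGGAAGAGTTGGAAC

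Apart from Hoxb1, detection followed the order of the clusters. Of the 49 members 25 were detected, or 9 of 16 in HoxA, 9 of 12 in HoxB, 3 of 10 in HoxC and 4 of 11 in HoxD, beside 29.0% of all annotated genes. Among coding members 19 of 39 were detected, beside 61.8% of all protein-coding genes. Among noncoding members 6 of 10 were, beside 11.5% of antisense and other long noncoding genes. No count in either pool was found for 12 members, 9 coding and 3 noncoding.

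**Figure D1:**
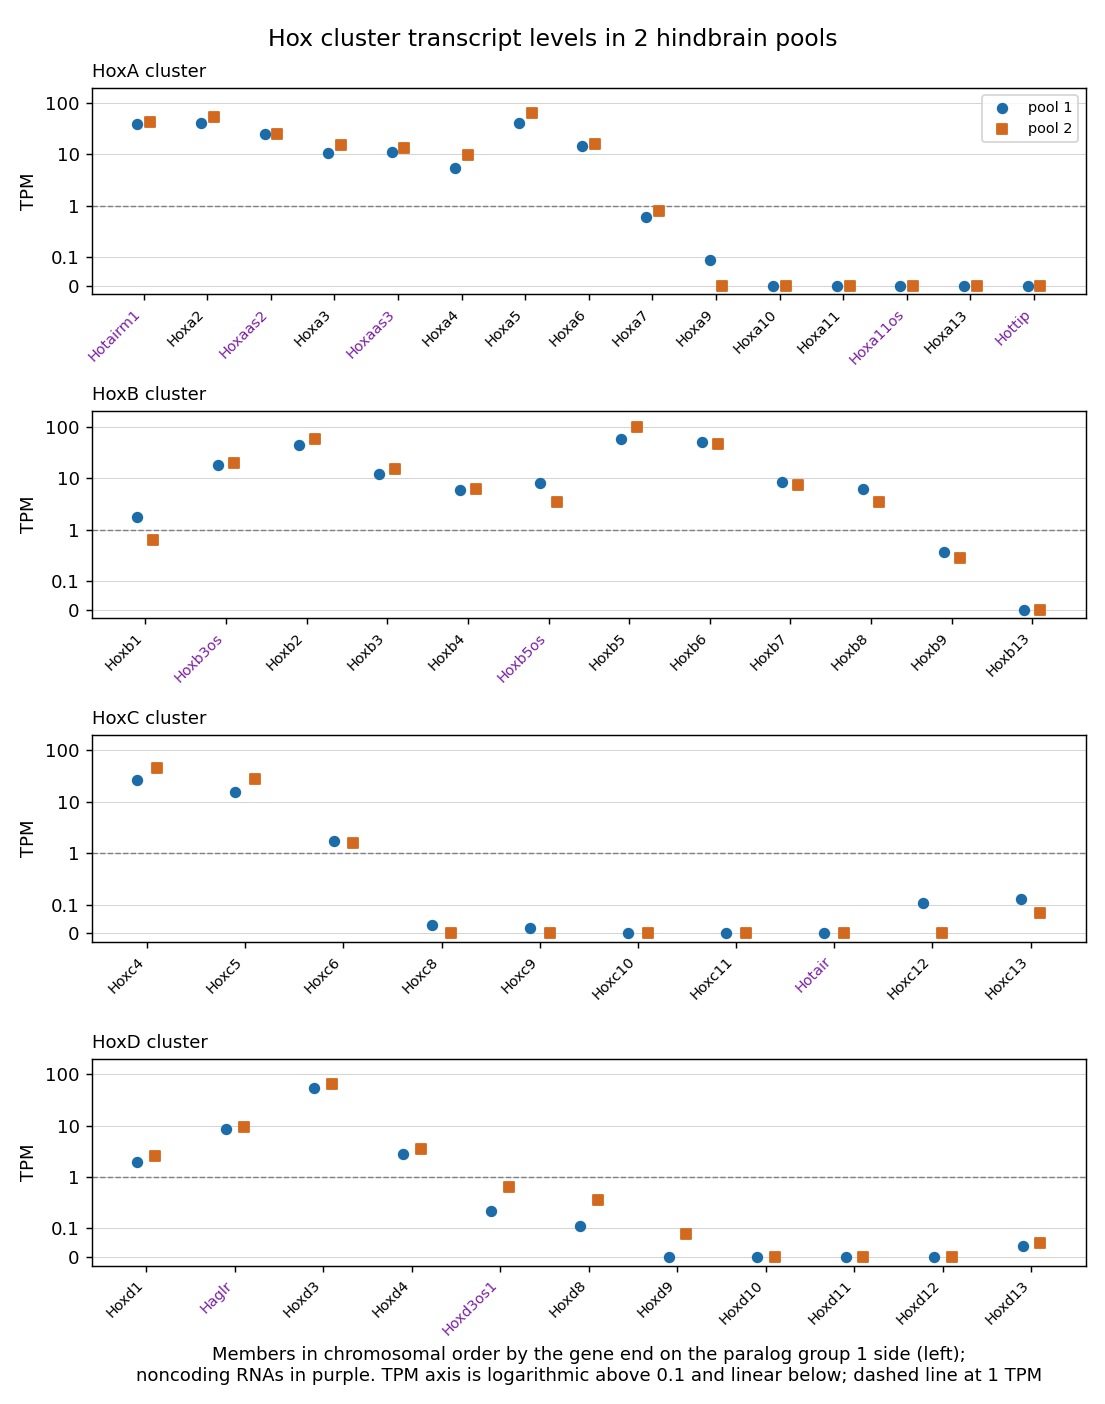
TPM of 48 members in pool 1 (circles) and pool 2 (squares), by cluster and in chromosomal order, on an axis that is logarithmic above 0.1 and linear below, with noncoding RNAs named in purple and a dashed line at 1 TPM. In each cluster the detected members lie towards the left, though Hoxb1, the leftmost of HoxB, was not detected. Levels drop past Hoxa6, Hoxb8, Hoxc6 and Hoxd4.

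From the last detected coding member to the next, levels fell 10.1-fold or more in each cluster and pool. In HoxA (chromosome 6 of mm10) Hoxa6 stood at 14.5 and 15.7 TPM and its neighbour Hoxa7 at 0.61 and 0.80 TPM, a step of 23.7-fold in pool 1 and 19.6-fold in pool 2, and the starts of their leading transcripts lie 8783 bp apart. In HoxB (chromosome 11, 96194316 to 96368256) Hoxb8 had 6.27 and 3.37 TPM and Hoxb9 0.36 and 0.28 TPM, steps of 17.4-fold and 12.0-fold between leading transcripts that start 10448 bp apart. The last detected paralog number was thus 6 in HoxA and 8 in HoxB.

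In HoxC (chromosome 15, 102921103 to 103036852) Hoxc6 had 1.76 and 1.58 TPM, and Hoxc8, whose leading transcript starts 18966 bp from that of Hoxc6, had 1 count in pool 1 and none in pool 2. In pool 1 the ratio of Hoxc6, with 52 counts, to Hoxc8 was 62.2 in TPM, with an exact 95% binomial counting interval of 10.7 to 2503. In pool 2, set against the 3 counts that a count of 0 allows, Hoxc6 was 18.9-fold higher. That value leaves out the counting error of Hoxc6 itself (43 counts), so it is not a bound like that of pool 1. In HoxD (chromosome 2, 74668310 to 74765142) Hoxd4 had 2.79 and 3.54 TPM and Hoxd8 0.11 and 0.35 TPM, steps of 25.4-fold and 10.1-fold between leading transcripts that start 22169 bp apart. The last detected paralog number was 6 in HoxC and 4 in HoxD, where the level of Hoxd4 was already far under that of Hoxd3 (53.9 and 64.1 TPM). Before these steps 1 coding member was not detected: Hoxb1, which marks rhombomere 4, at 1.74 and 0.63 TPM.

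Beyond these steps very few reads remained. Paralog groups 9 to 13 have 16 coding members, and together they held 33 counts in pool 1 and 20 in pool 2, with a count in 7 of the 16. Hoxb9, with 18 and 12 counts, took most of them. Hoxa7 (23.2 and 28.2 counts) and Hoxd8 (4 and 13 counts) were the other coding members past a step with 10 or more counts in a pool. Intervals and floors cover counting error only, since reads amplified without molecular identifiers are not independent molecules.

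HoxB carried the largest part of the coding Hox RNA. Summed over coding members, HoxB reached 187.3 TPM in pool 1 and 232.1 in pool 2, which was 46.1% and 43.1% of the coding Hox total. HoxA reached 115.4 and 160.2 TPM, or 28.4% and 29.7%. HoxD summed to 58.8 and 70.6 TPM (14.5% and 13.1%) and HoxC to 44.5 and 75.8 TPM (10.96% and 14.07%). The order HoxB above HoxA above the remaining clusters held in both pools, while HoxC and HoxD changed places between them.

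In paralog groups 2 to 8 the leading member gave 50.2% or more of the summed TPM in both pools. Groups 2 and 7 have 2 members each, so there the leading member by mean TPM holds the larger part by construction. Group 5 had the largest sum, 114.6 and 188.7 TPM, of which Hoxb5 gave 50.2% and 51.2%. Hoxb6 gave 75.5% and 72.7% of group 6, Hoxd3 70.6% and 68.3% of group 3, and Hoxc4 65.4% and 70.3% of group 4. HoxB members led 5 of the paralog groups 1 to 8 by mean TPM, namely groups 2, 5, 6, 7 and 8. Group 1, whose members are among the earliest Hox genes to be expressed, was low in HoxB and HoxD, with Hoxb1 at 1.74 and 0.63 TPM and Hoxd1 at 1.96 and 2.56 TPM.

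In the order of levels, most neighbours were not separated by the spread of the pools. Of 24 neighbouring pairs among the 25 detected members, 5 had both pools of the upper gene above both pools of the lower: Hoxc4 over Hoxaas2, Hoxb3os over Hoxa6, Hoxaas3 over Haglr, Haglr over Hoxb7, and Hoxd4 over Hoxd1. Hoxb5 led with 57.6 and 96.6 TPM, followed by Hoxd3 (53.9 and 64.1 TPM) and Hoxa5 (41.3 and 63.7 TPM), and these values overlap. Hoxb2 (45.1 and 56.7 TPM) and Hoxa2 (40.4 and 53.8 TPM), genes that pattern rhombomeres and the neural crest leaving them, overlapped with Hoxb6 (49.95 and 46.04 TPM) in between. Median levels were 13.3 TPM over the 19 detected coding members, 15.5 TPM over the 6 detected noncoding members and 16.9 TPM over all detected genes.

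Several further coding members held intermediate levels. Hoxc4 (26.8 and 45.7 TPM) and Hoxc5 (15.7 and 28.4 TPM) made up nearly all HoxC RNA. Hoxa3 (10.6 and 15.0 TPM), Hoxb3 (11.8 and 14.8 TPM) and Hoxb7 (8.51 and 7.36 TPM) followed, then Hoxa4 (5.38 and 9.58 TPM) and Hoxb4 (5.99 and 6.21 TPM). Group 4 genes have their forward limit in the caudal hindbrain, and here the members of that group ranged from 3.17 TPM (mean, Hoxd4) to 36.2 TPM (mean, Hoxc4).

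The levels of the 6 detected noncoding RNAs lay within the range of the detected coding members. Hotairm1 had 38.5 and 42.9 TPM, close to Hoxa2 (40.4 and 53.8 TPM) in this length-corrected scale. By expected counts, which are not corrected for length, Hotairm1 had 213.6 and 202.5 and Hoxa2 1354 and 1661. Which Hotairm1 transcript led also depended on the scale: Hotairm1-203, of 253 bases, led in TPM, whereas by expected counts Hotairm1-202, of 713 bases, held 59.1% and 52.3% and Hotairm1-203 40.4% and 46.2%. None of the bases of Hotairm1-203 lies opposite an annotated exon. On the same strand Hotairm1 shares 244 exonic bases (23.8%) with short noncoding genes, among them Gm27868.

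Hoxaas2 (24.6 and 24.8 TPM), between Hoxa2 and Hoxa3, differed by less between the pools than any other detected member in TPM. Its leading transcript Hoxaas2-203 overlaps the end of Hoxa3: 503 of its 3047 bases, or 16.5%, lie opposite exons of Hoxa3-201. The strand of its reads was not tested. Hoxaas3 had 11.3 and 13.2 TPM. Hoxb3os had 18.3 and 19.3 TPM, 1.55-fold and 1.30-fold the level of Hoxb3. Of the 2315 bases of its leading transcript 2250, or 97.2%, lie opposite exons of Hoxb3-202, and whether strand was used in counting is not given, so reads of Hoxb3 and Hoxb3os cannot be told apart here. Without that transcript Hoxb3os stood at 4.70 and 4.87 TPM, all in Hoxb3os-202. Exons of Hoxb3os-202 lie opposite 953 exonic bases of Hoxb2 (45.1 and 56.7 TPM), so this remainder is not free of overlap either.

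Haglr, an RNA annotated as divergent from Hoxd1, had 8.53 and 9.37 TPM, against 1.96 and 2.56 TPM for Hoxd1. Few of its reads were assigned to the annotated transcript that begins beside Hoxd1. Haglr-202, whose start lies 84 bp from that of Hoxd1, held 5.86% of Haglr TPM in pool 1 and 0% in pool 2. The single-exon Haglr-201, with a start 12390 bp away from that of Haglr-202 and an overlap of 21 bases with the end of Hoxd3-206, held 91.0% and 88.5%. Most reads given to Haglr thus lay next to the end of the more abundant Hoxd3, and their strand was not tested.

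**Figure D2:**
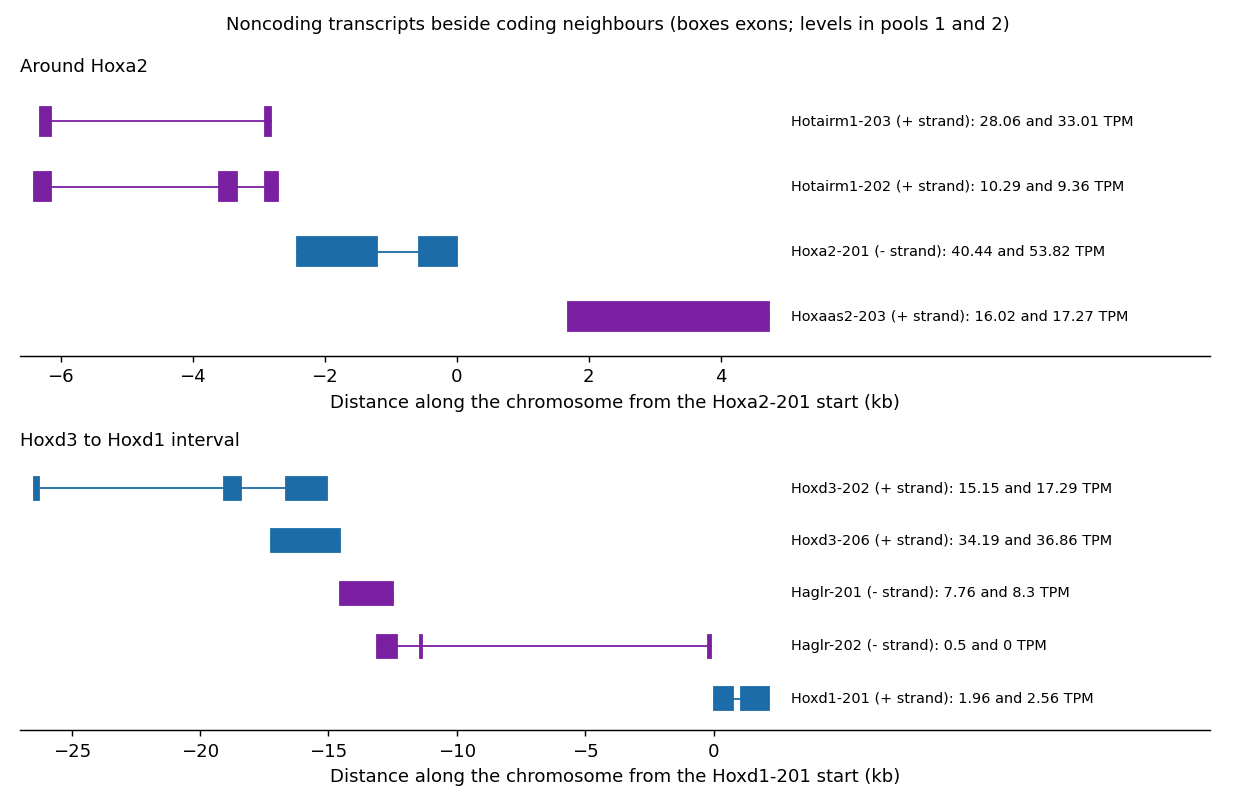
Exons (boxes) of transcripts around Hoxa2 and between Hoxd3 and Hoxd1, against distance in kb from the Hoxa2 or Hoxd1 start, coding genes in blue and noncoding in purple, with TPM in pools 1 and 2. Haglr-201 (7.76 and 8.30 TPM) lies at the end of Hoxd3, and Haglr-202 (0.50 and 0 TPM) reaches to Hoxd1.

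Hoxb5os was the least abundant detected noncoding member, at 7.96 and 3.50 TPM from 79 and 32 counts. Hoxb5 exceeded it 7.23-fold in pool 1 and 27.6-fold in pool 2. Its quantified transcript Hoxb5os-202 has no base opposite an annotated exon and starts 3398 bp from the Hoxb5 start. Hoxd3os1, which runs across Hoxd8 on the opposite strand, was under 1 TPM in both pools (0.22 and 0.63 TPM). Hotair, in the high-numbered part of HoxC, and Hottip and Hoxa11os, at the high-numbered end of HoxA, had no count in either pool, as had Hoxa10, Hoxa11 and Hoxa13.

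Annotated exons of some members overlap those of other genes, which limits how reads divide. Whether strand was used in counting is not given for any member, so overlap on the opposite strand limits this as well. On the same strand 9 of 39 coding and 3 of 10 noncoding members share exonic bases with another gene, and on the opposite strand 10 of 39 and 9 of 10 do. The matching shares over all annotated genes were not computed. Hoxd3 and Hoxd4 share most, 62.3% and 52.3% of their exonic bases, mainly with the readthrough gene Gm28230, which itself was given 0.82 and 0.51 TPM. Of 41 other genes annotated within the cluster spans 6 were detected, beside 29.0% of all annotated genes. Among them were the antisense RNA Gm15050 (7.18 and 8.15 TPM) and 5730596B20Rik (4.30 and 5.29 TPM) in HoxA.

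Transcript tables split the 49 members into 120 transcripts. Of the 25 detected members 6 have 1 annotated transcript, and in all 19 of the remainder the same transcript led by TPM in both pools. The leading transcript held under 80% of TPM in at least 1 pool for 9 members. Matching shares over all genes were not computed, so these counts describe the members alone. Hoxd3 differed most from what its gene total shows: its leading transcript Hoxd3-206, an unspliced retained-intron model of 2721 bases, held 63.5% and 57.5%, while the spliced coding transcript Hoxd3-202 held 28.1% and 27.0%. The 2 models share 1594 bases, so reads from these bases were divided between them by estimation, and 1127 bases lie in the retained-intron model and not in Hoxd3-202. Some of these 1127 bases are intronic, before the last exon of Hoxd3-202. Others lie past the Hoxd3-202 end at 74747915, up to 74748442, where the coding model Hoxd3-203 reaches 74748271. How the reads divide between these parts was not tested, so the share of Hoxd3-206 does not measure unspliced RNA alone.

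In protein-coding transcripts alone, Hoxd3 had 19.7 and 27.2 TPM, 36.5% and 42.5% of its gene level, and moved from rank 2 to rank 7 among the 19 detected coding members. It was the only one with under 50% in coding transcripts in both pools. For 12 of the 19 all TPM lay in coding transcripts, and 5 had under 95% in either pool. The HoxD share of coding Hox TPM was 6.87% on this count, against 13.8% with all transcripts (means of the pools).

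**Figure D3:**
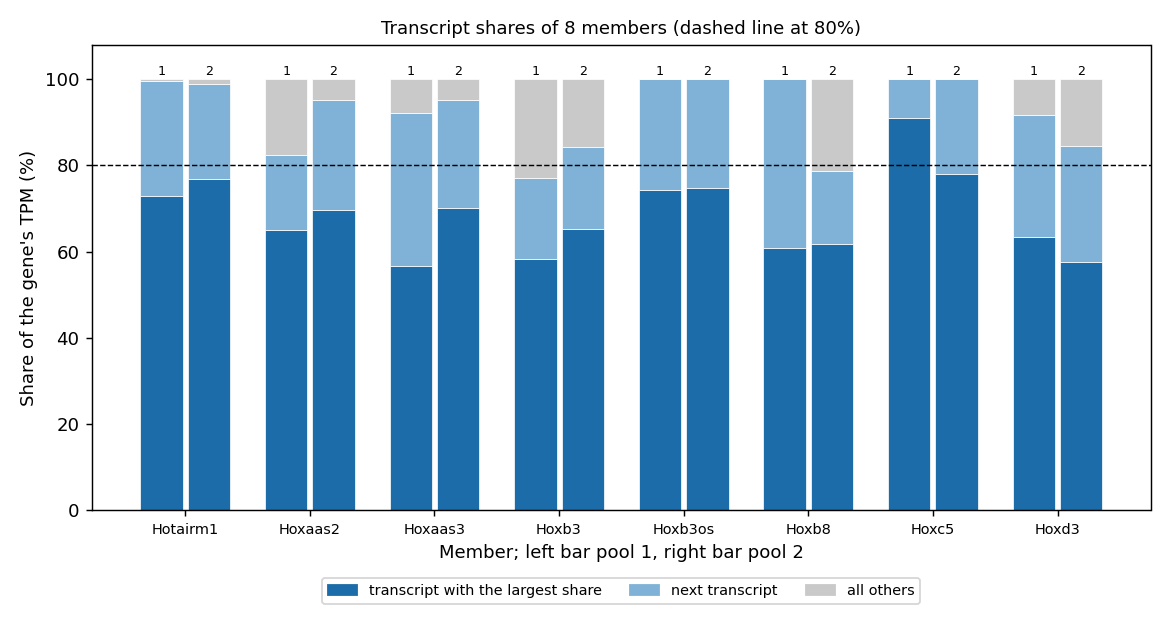
Share of each gene's TPM in percent for the leading transcript, the next and all others, in pool 1 (left bar) and pool 2 (right bar), for 8 of the members whose leading transcript held under 80% (dashed line) in at least 1 pool. The leading transcript ranges from 56.7% (Hoxaas3, pool 1) to 91.1% (Hoxc5, pool 1).

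Other members with divided output were noncoding or had short models beside a long one. The leading transcript held 72.9% and 76.9% for Hotairm1, 74.3% and 74.7% for Hoxb3os, 65.0% and 69.6% for Hoxaas2 (Hoxaas2-203, a single-exon retained-intron model) and 56.7% and 70.0% for Hoxaas3. For Hoxb3 it held 58.3% and 65.2%, and for Hoxb8 60.9% and 61.7%. The next Hoxb8 transcript differed between the pools: Hoxb8-202 held 39.1% and 16.9%, and Hoxb8-203 0% and 21.4%. The deposited TPM intervals of Hoxb8-202 overlap between pools 1 and 2 (1.19 to 3.50 and 0.094 to 1.44). Those of Hoxb8-203 overlap too (1.49e-05 to 1.24 and 2.86e-05 to 1.51), so this difference is not resolved. For Hoxc5 the leading transcript held 91.1% and 78.1%, the rest being Hoxc5-202, a noncoding model that begins 46372 bp further upstream. By expected counts the leading transcript was past 80% in both pools for 4 of these members, with 81.9% and 83.0% for Hoxaas2, 85.5% and 90.0% for Hoxb3, 87.5% and 83.2% for Hoxb8 and 98.2% and 95.1% for Hoxc5. Hoxb8-202 then held 12.5% and 5.07% of Hoxb8 counts, so the division of these 4 rests on the length correction in TPM.

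Between the pools the coding members had a larger median difference than all genes. Ratios are of counts scaled by TMM, which centres all genes near 0 on the log2 scale (median 0.0019), and were computed for the 24 members with 50 or more mean counts. Of these 19 were higher in pool 2 and 5 in pool 1, with a median log2 ratio of 0.13, beside 50.6% of all 14989 such genes higher in pool 2. The median absolute log2 ratio was 0.40 over 18 coding members and 0.07 over 6 noncoding members, against 0.0981 over all genes. From TPM with a pseudocount of 0.1 it was 0.39, 0.14 and 0.11, so whether the noncoding members lay under or over all genes depended on the scale. Scaled to the spike-ins, all genes moved by -0.37 and 8 of the 24 members were higher in pool 2, so these directions are relative to the bulk of genes.

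**Figure D4:**
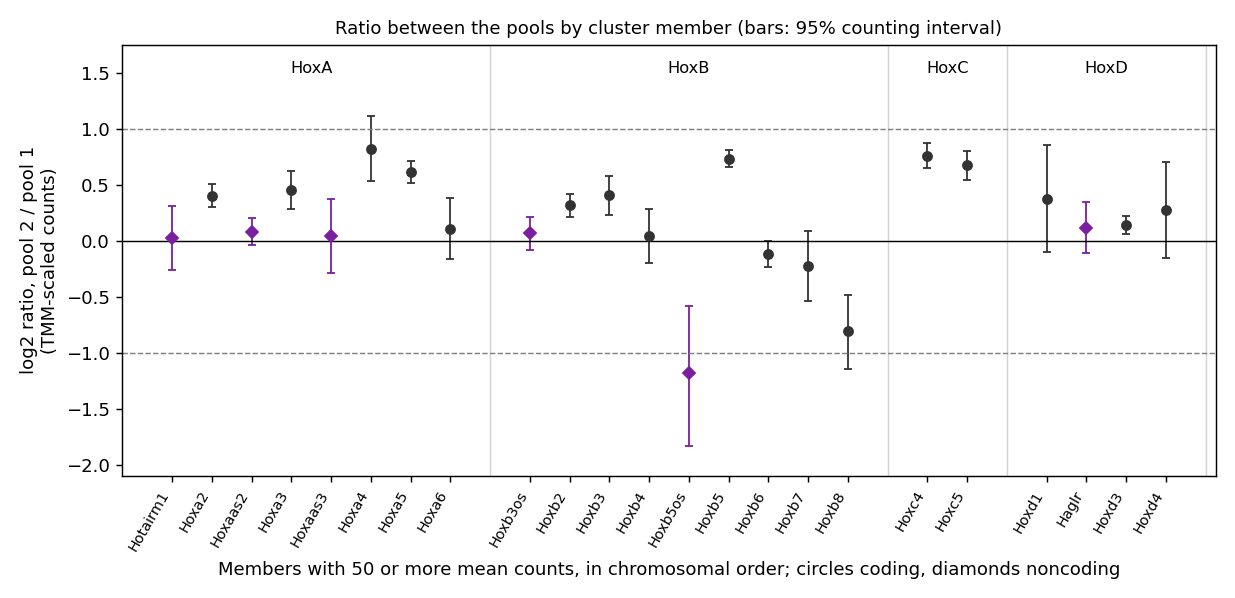
Log2 ratio of pool 2 to pool 1 in TMM-scaled counts for 23 of the members with 50 or more mean counts, in chromosomal order within each cluster, coding as circles and noncoding as diamonds, with 95% counting intervals and dashed lines at a 2-fold difference. Hoxa4, Hoxa5, Hoxb5, Hoxc4 and Hoxc5 lie highest, Hoxb8 and Hoxb5os lowest, and 5 of 6 noncoding RNAs lie near 0.

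Members of groups 2 to 5 lay towards pool 2. Hoxc4 had a log2 ratio of 0.76 (95% counting interval 0.64 to 0.87), Hoxb5 of 0.73 (0.65 to 0.81), Hoxa5 of 0.61 (0.52 to 0.71) and Hoxa2 of 0.40 (0.30 to 0.51). By paralog group, the summed TPM of groups 2, 3, 4 and 5 differed by 0.37, 0.30, 0.67 and 0.72 on the log2 scale. Within group 4 the size was uneven, with Hoxa4 at 0.82 (0.53 to 1.11) and Hoxb4 at 0.04 (-0.20 to 0.28).

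Groups 6 to 8 in HoxB lay the other way. Hoxb8 had a log2 ratio of -0.81 (-1.15 to -0.48), Hoxb7 of -0.23 (-0.54 to 0.08) and Hoxb6 of -0.12 (-0.24 to -0.0050), so that along HoxB the ratio was highest at Hoxb5 and lowest, among measured coding members, at Hoxb8. Hoxb1, with 61 and 23 counts and thus under the minimum, stood at -1.28 (-2.06 to -0.59). The counting interval left out 0 for 14 members, beside 35.0% of all genes: 10 were higher in pool 2, beside 18.4%, and 4 higher in pool 1, beside 16.6%.

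Of the 24 members 1 differed 2-fold or more, beside 0.994% of all genes. It was Hoxb5os, 2.27-fold higher in pool 1, a direction taken by 0.414% of all genes, and no member was 2-fold higher in pool 2, beside 0.58%. Hoxb5os had a log2 ratio of -1.18 (-1.84 to -0.59) where its coding neighbour Hoxb5 had 0.73. The other 5 noncoding RNAs lay between 0.02 (Hotairm1) and 0.12 (Haglr), and each counting interval held 0. From TPM with a pseudocount of 0.1 these 5 ranged from 0.0093 (Hoxaas2) to 0.22 (Hoxaas3), with Hotairm1 at 0.15.

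Several lists of markers of other tissues also lay to one side between the pools. All 8 skeletal muscle markers were higher in pool 2, with a median log2 ratio of 2.25 and a summed level of 30.1 TPM in pool 1 and 154.9 in pool 2. All 8 mesenchyme and meninges markers were higher in pool 2 (median 0.31, sums 1275 and 1662 TPM). So were all 4 cartilage markers (median 0.76, sums 440.1 and 479.6 TPM) and 4 of 6 somite and sclerotome markers (median 0.42, sums 93.6 and 99.1 TPM). The 2 cartilage markers of highest TPM had log2 ratios of 0.07 and 0.11, and the other 2 of 1.41 and 2.04. The most abundant somite and sclerotome marker stood at -0.0039. In the other direction, 5 of 6 erythroid markers (median -0.35, sums 13280 and 10384 TPM) and 4 of 6 surface epithelium markers (median -0.48, sums 112.5 and 82.4 TPM) were higher in pool 1. Nkx1-2, the 1 detected caudal marker, was lower in pool 2 (-1.15), and hindbrain markers had a median of 0.15, with 8 of 9 higher in pool 2. The part of these tissues in the Hox ratios was not tested.

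The older annotation GENCODE M4 holds all 49 members too. Of 26 members at a mean of 1 TPM or more in both annotations, 0 differed 2-fold, beside 2.61% of 15686 genes. The log2 ratio of M21 to M4 ran from -0.17 (Haglr) to -0.05 (Hoxc5), with a median of -0.07, equal to the -0.07 of all genes. Detection was the same number under M4, 25 of 49.

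All 9 TALE homeodomain cofactors, which bind DNA together with Hox proteins, were detected, beside the 61.8% of all protein-coding genes, and 4 of them led: Meis1 (133.8 and 156.4 TPM), Meis2 (100.9 and 118.6 TPM), Meis3 (105.2 and 105.6 TPM) and Pbx3 (82.3 and 85.2 TPM). Pbx2 was the lowest at 13.9 and 14.3 TPM, under the median of 16.9 TPM over all detected genes. Their median log2 ratio between the pools was 0.05, with 6 higher in pool 2 and 0 past 2-fold.

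Of 19 measured regulators of Hox transcription 14 were detected, beside 61.8% of all protein-coding genes. The Polycomb genes Ezh2 (122.8 and 118.4 TPM), Eed (54.0 and 53.0 TPM) and Cbx2 (48.4 and 46.5 TPM) led, with Cyp26b1, an enzyme that degrades retinoic acid, at 42.8 and 46.4 TPM. The caudal activators Cdx2 and Cdx4 had no count, and Cdx1 had 0.09 and 0.03 TPM. This list had a median log2 ratio of 0.05, with 7 higher in each pool among 14 measured.

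All 7 genes on a list of reported Hox targets in hindbrain or neural crest were detected, beside 61.8% of all protein-coding genes. Among them were the transcription factor Foxp1 (67.9 and 67.8 TPM) and the axon guidance receptor Robo2 (48.8 and 62.0 TPM). Gata3, a transcription factor of hindbrain neurons, had 49.1 and 37.1 TPM. Of 11 genes that flank the clusters 10 were detected, beside the same 61.8%. Cbx5 (145.5 and 145.5 TPM), Mtx2 (101.3 and 100.9 TPM), Hibadh (49.4 and 51.2 TPM) and Lnpk (44.8 and 46.9 TPM) were the highest. Ttll6, beside HoxB, had 0.12 and 0.10 TPM. Lnpk and Mtx2 flank HoxD, in which Hoxd10, Hoxd11 and Hoxd12 had no count. Median log2 ratios were -0.03 for the targets and 0.04 for the flanking genes.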

How the data were processed

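For each of 2 hindbrain pools the authors deposited gene and transcript tables made with GENCODE M21 and with GENCODE M4 on mm10. The name of the program and its strand setting were not given in the sources used here. Expected counts in the deposited tables are estimates of the reads from each feature, with no scaling to library size. The deposited TPM column divides these by effective length and by a library total that includes the spike-ins. The authors' deposited FPKM values, normalised to length and library, were an alternative. The deposited isoform values in percent were not used: transcript shares were computed from transcript TPM. M21 gene counts summed to 31469575 and 29261472, and spike-ins took 3.31% and 4.25% of all counts in pools 1 and 2.

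Symbols matched 55450 of 55536 M21 identifiers. The members and lists were chosen with earlier results of these data known. By rule all members are named, and of each other list the 4 highest and up to 3 under 1 TPM in both pools; some genes that the rule names are counted but not reported here, nor drawn, and Znf703 of the regulator list matched no symbol. Transcripts are named for members whose leading transcript held under 80% in a pool, and for antisense RNAs. Ratios between the pools used counts rounded to whole numbers, TMM factors from edgeR 4.0.16, a prior count of 0.5 and at least 50 mean counts, with exact 95% binomial counting intervals and no test, because the pools are replicates of 1 group. The ratio script was tested on simulated data. Floors are 3 counts at the gene's effective length. Promoters are RefSeq windows on GRCm38.p6. Alternatives were thresholds of 0.5 and 5 TPM, FPKM, M4, DESeq2 1.42.0 size factors, total counts, spike-in totals, pseudocounts of 0.1 and 1, other count minimums, leaving out a pool, and coding transcripts only. The work ran in R 4.3.3 and in Python 3.11.15 with scipy 1.17.1, pandas 2.3.3 and matplotlib 3.10.9.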

Additional observations from a re-analysis of the deposited data

How the results depend on the processing

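No paired analysis was possible because there is 1 group. Detection of members (25) ranged from 19 at 5 TPM to 27 at 0.5 TPM, and from 25 to 26 when 1 pool was left out. The last detected paralog number moved from 6 to 7 in HoxA at 0.5 TPM, and at 5 TPM to 7 in HoxB, 5 in HoxC and 3 in HoxD. Cluster shares rested on how overlapping genes were treated. Hoxc5, Hoxc10, Hoxd3 and Hoxd4 share same-strand exons with another coding member and were left out. HoxA then took 35.4%, HoxB 54.3%, HoxC 9.67% and HoxD 0.660% of coding Hox TPM. Members that share exons only with other genes were kept, among them Hoxa2 (15.0% of exonic bases) and Hoxa3 (8.01%). In coding transcripts only, an alternative added after the values were seen, HoxA took 32.0%, HoxB 48.0% and HoxD 6.87%.

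The median log2 ratio of the members between the pools (0.13) was 0.23 from TPM with a pseudocount of 0.1 and 0.31 over the 17 members with 200 or more mean counts. With spike-in totals, which shift all genes by -0.37, it was -0.25. Then 11 members turned lower in pool 2: Hotairm1 (-0.35), Hoxb4 and Hoxaas3 (-0.33 each), Hoxb3os (-0.31), Hoxaas2 (-0.30), Hoxa6 (-0.27), Haglr (-0.26), Hoxd3 (-0.23), Hoxd4 (-0.10), Hoxb2 (-0.0604) and Hoxd1 (-0.0028). The count past 2-fold, 1 of 24, was 2 with spike-in totals, 0 of 24 from TPM with a pseudocount of 1, 0 of 17 at 200 or more mean counts, and 8 of 37 with no minimum, by construction of these filters. Of 9 members with a divided transcript output, 6 had one by expected counts, which added Hoxd4 and left out Hoxaas2, Hoxb3, Hoxb8 and Hoxc5. Depth limits the members past the cluster steps, where a count of 0 allows 3 counts.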

Other observations

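The genes inside the cluster spans that carry no Hox name were described after their values were seen. The microRNA genes Mir10a and Mir10b, which lie near Hoxb4 and Hoxd4, and Mir196a-1, Mir196a-2, Mir196b and Mir615 were listed at 0 in both pools, in libraries made from polyadenylated RNA. Gm27868, a short noncoding entry that overlaps Hotairm1 on the same strand, was listed at 7.52 and 64.2 TPM from 0.45 and 3.55 expected counts. Gm27477, next to Gm27868, was listed at 36.4 and 34.6 TPM from 32 and 28 counts. The TPM values of Gm27868 rest on almost no reads, because TPM divides by an effective length that is very small for such entries. Gm11536, antisense within HoxB, had 1.95 and 2.49 TPM, and Gm14424, in the interval between Hoxd3 and Hoxd1, had 2.12 and 2.52 TPM.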
